A study of Homo sapiens with 14 samples.

Results

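The transcripts of cholesterol and fatty acid synthesis were followed in long-term colony cultures of colorectal cancer cells. The 31 genes were chosen by name for their place in these pathways and matched by symbol among the 36601 genes of the single-cell matrices and the 60624 genes of the bulk tables used here, and all 31 were found in both. They comprise 7 enzymes of the mevalonate pathway, 11 enzymes from squalene to cholesterol, 5 genes of SREBP control and sterol transfer, and 8 genes of fatty acid synthesis and desaturation. SW620, a line from a lymph node metastasis of colorectal cancer, and SW620-TET2CD, the same line with the catalytic domain of the DNA demethylase TET2, were grown without passage and sampled on days 6, 9, 12 and 15 for single-cell RNA-seq, with 1 library per line and day. The text of the study describes its control line as carrying an empty FLAG vector, while the labels call it SW620. Bulk RNA-seq was done on day 6 in SW480, a line from the primary tumour of the same patient, and in SW620, and on day 15 in cells inside and outside the colonies of SW620 and SW620-TET2CD, with 1 library each. Inside and outside cells had been separated by a short enzyme digestion and a cell strainer, so they may come from the same wells. The labels give neither the clonal origin of SW620-TET2CD nor separate cultures for any condition, and p-values therefore measure only the spread between these libraries.

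Cells make cholesterol from acetyl-CoA through mevalonate, isoprenoid diphosphates, squalene and lanosterol, and they make fatty acids by extending acetyl-CoA with malonyl-CoA. Transcription of both pathways is driven by the SREBP factors, which are encoded by SREBF1 and SREBF2, held in the endoplasmic reticulum by INSIG proteins when sterols are plentiful, and carried to the Golgi by SCAP for cleavage when sterols are low. Several of the later sterol reactions and the desaturation of fatty acids consume molecular oxygen, which places SQLE, CYP51A1, MSMO1, SC5D, SCD, FADS1 and FADS2 among the oxygen-dependent enzymes.

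The upstream sequences of 6 members are shown because they include the SREBP2 gene itself, 4 members that rose late, and PMVK, a kinase of the mevalonate pathway that fell. Of the 31 members, 27 were matched by symbol in the RefSeq promoter table of GRCh38.p14, with 37 start sites in all, and ACAT2, FASN, FDFT1 and SQLE were not. The windows hold up to 250 bases before the RefSeq start, cut where the GENCODE gene begins. Capitals mark TCACNCCAC, a form of the sterol regulatory element, and CCAAT, the box bound by NF-Y, on either strand.
SREBF2 (chr22:41832855-41833104, plus strand): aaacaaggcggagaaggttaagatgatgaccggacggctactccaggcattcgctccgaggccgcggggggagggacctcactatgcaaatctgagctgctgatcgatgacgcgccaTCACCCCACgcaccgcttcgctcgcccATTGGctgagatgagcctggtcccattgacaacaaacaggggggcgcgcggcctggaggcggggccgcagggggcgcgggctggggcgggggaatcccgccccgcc
INSIG1 (chr7:155297628-155297775, plus strand): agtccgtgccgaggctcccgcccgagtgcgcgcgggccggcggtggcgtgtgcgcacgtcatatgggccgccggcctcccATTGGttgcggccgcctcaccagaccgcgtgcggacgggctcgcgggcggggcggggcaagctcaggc
MSMO1 (chr4:165327419-165327666, plus strand): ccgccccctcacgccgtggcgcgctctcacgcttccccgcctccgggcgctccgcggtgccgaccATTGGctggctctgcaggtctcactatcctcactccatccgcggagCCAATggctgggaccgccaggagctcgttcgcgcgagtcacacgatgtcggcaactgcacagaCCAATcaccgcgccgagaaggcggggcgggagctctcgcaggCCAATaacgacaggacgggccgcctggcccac
STARD4 (chr5:111512591-111512785, minus strand): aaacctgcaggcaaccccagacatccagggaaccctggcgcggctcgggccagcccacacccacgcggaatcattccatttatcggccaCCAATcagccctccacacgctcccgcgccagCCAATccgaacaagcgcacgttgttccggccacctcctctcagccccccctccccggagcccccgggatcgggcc
SCD (chr10:100346983-100347232, plus strand): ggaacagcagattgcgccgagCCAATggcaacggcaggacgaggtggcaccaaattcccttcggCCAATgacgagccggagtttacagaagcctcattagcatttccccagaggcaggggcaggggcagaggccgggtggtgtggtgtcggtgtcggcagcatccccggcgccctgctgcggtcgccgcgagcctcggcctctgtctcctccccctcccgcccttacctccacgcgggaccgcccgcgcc
PMVK (chr1:154936720-154936969, minus strand): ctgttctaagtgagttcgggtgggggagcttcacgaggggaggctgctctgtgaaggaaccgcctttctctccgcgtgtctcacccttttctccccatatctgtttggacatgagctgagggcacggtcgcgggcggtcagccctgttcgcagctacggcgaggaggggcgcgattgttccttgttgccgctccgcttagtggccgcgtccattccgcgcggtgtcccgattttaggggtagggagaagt
In the windows of 250 bases, TCACNCCAC was found at 1 of 37 start sites, that of SREBF2, against 0.883% of all 35116 promoters in the table. CCAAT was found at 24 of 37, or 64.9%, against 32% of all promoters. GGGCGG, the core of GC boxes bound by Sp1, was found at 33 of 37, or 89.2%, against 42.6%. The motifs were searched on both strands, and a match is a string of letters and not a site of binding. MSMO1 carried 4 CCAAT matches in the stretch shown, SCD and STARD4 2 each, and INSIG1 and SREBF2 1 each, and PMVK had 0. The matches did not divide the members by their change in time: ACLY, DHCR7, LSS, MVK and NSDHL, which fell, also had CCAAT in their windows, and SREBF1, which rose, did not.

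Of 67056 cell barcodes, 48282 passed the limits on genes, UMIs and mitochondrial share, with 48186195 to 74185723 UMIs per library. Levels are given as CPM, the UMIs of a gene summed over these cells and scaled to the same total in each library. The libraries differed in quality: the share of cells above the upper limits was 1.15% to 29%, and the median UMIs per cell ran from 6640 to 13479. Only 548 of 66508 barcode sequences were found in more than 1 library. TET2 was measured at 2.11 to 3.90 CPM in the 4 SW620 libraries and at 40.2 to 107 CPM in the 4 SW620-TET2CD libraries, as the labels say. The 8 epithelial markers summed to 9311 to 13920 CPM, mostly from KRT8, KRT18 and KRT19, with 6 of them over 10 CPM in any library. KRT20 was at 0.217 to 0.965 CPM and CDX1 at 0 to 0.207 CPM. The 4 endothelial markers summed to at most 1.39 CPM, with KDR at 0. The 6 fibroblast markers summed to 16.6 to 28.7 CPM early and 8.37 to 12.9 CPM late, with LUM the only one of them over 10 CPM in any library. The 5 immune markers summed to 7.56 to 17.4 CPM early and 23.9 to 57.7 CPM late, with CD68 at up to 36.9 CPM. Their part in the results was not tested.

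In the single-cell libraries cycling cells were common early and hypoxia genes were high late. Cells with at least 10 UMIs per 10000 from 24 cell cycle genes made up 69.8% to 83.1% of each library on days 6 and 9 and 5.67% to 16.7% on days 12 and 15, with 16.7% in SW620-TET2CD on day 12. The 17 genes of the hypoxia score, such as CA9 and VEGFA, summed to 296 to 505 CPM early and 1745 to 1890 CPM late. The design therefore cannot tell apart time, division and hypoxia in whole libraries, and the members were also compared between classes of cells within each library.

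The summed level of all 31 members did not move in 1 direction with time. In SW620 it was 1656, 2164, 1556 and 2016 CPM on days 6, 9, 12 and 15, and in SW620-TET2CD it was 1741, 2048, 2105 and 1909 CPM. Early and late libraries overlapped. Single members moved in both directions. Between days 12 and 15 on one side and days 6 and 9 on the other, 17 of 31 members passed the edgeR test at an adjusted p of 0.05, of which 8 rose and 9 fell. Of all 16993 genes tested, 57.7% passed, 29.4% higher and 28.3% lower, so the share of members past the test was near the background. The median log2 fold change was -0.15 over the members and 0.04 over all genes. With upper-quartile factors the median of all genes moved to 0.21. The members past the test then split into 11 higher and 6 lower, against 37.7% and 21.8% of genes. In 8 members all 4 late libraries lay above all 4 early ones, against 29.7% of genes, and in 7 all late libraries lay below, against 22.2%.

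**Figure D1:**
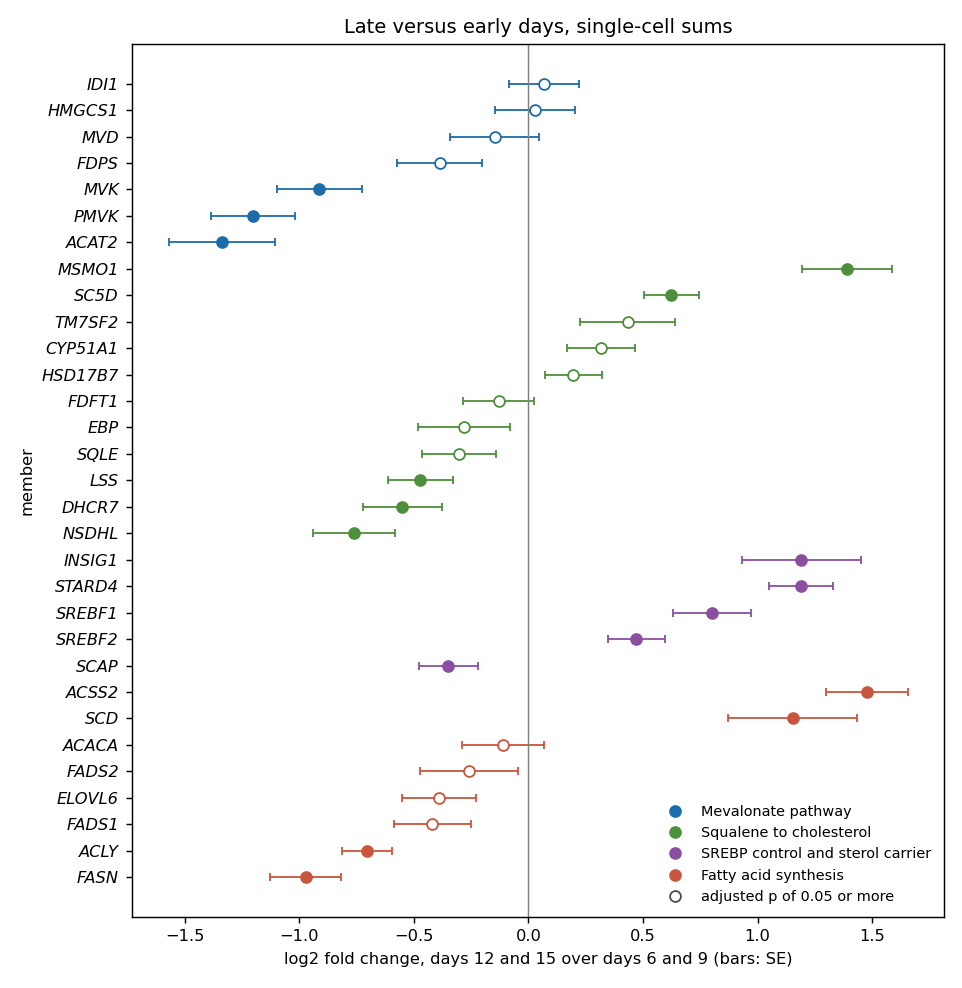
Log2 fold change of each member between late (days 12 and 15) and early (days 6 and 9) single-cell libraries, grouped and coloured by role, with bars of 1 SE from the edgeR fit on 8 libraries. Filled points passed an adjusted p of 0.05, and every role except the mevalonate pathway has filled points on both sides of 0.

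In the mevalonate pathway 3 of 7 enzymes fell and none rose by the edgeR test, beside 28.3% of all genes lower and 29.4% higher. ACAT2, which joins acetyl-CoA units at the entry of the pathway, was at 159, 171, 54.1 and 59.5 CPM in SW620 on days 6, 9, 12 and 15 and at 171, 167, 120 and 55.9 CPM in SW620-TET2CD. All late libraries were below the early ones, and SW620-TET2CD on day 12 stood apart, between the periods. The log2 fold change was -1.34 ± 0.23 (SE, adjusted p = 0.000711). PMVK, the phosphomevalonate kinase, was at 57.2, 55.6, 29.3 and 22.4 CPM in SW620 and at 60.7, 52.1, 34.9 and 19.3 CPM in SW620-TET2CD. All 4 late values were below all early values, and the fold change was -1.20 ± 0.18 on the log2 scale (adjusted p = 0.00035). MVK, the mevalonate kinase, was at 17.4, 21.9, 9.97 and 9.87 CPM in SW620 and at 17.9, 19.2, 15.2 and 8.70 CPM in SW620-TET2CD. Its log2 fold change was -0.91 ± 0.19 (adjusted p = 0.00185), again with the highest late value in SW620-TET2CD on day 12. HMGCS1, which makes HMG-CoA and is a classical SREBP2 target, overlapped between periods, at 42.9 to 59 CPM early and 43.7 to 77.9 CPM late (log2 fold change 0.03 ± 0.18, adjusted p = 0.897). IDI1, MVD and FDPS did not pass the test either.

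**Figure D2:**
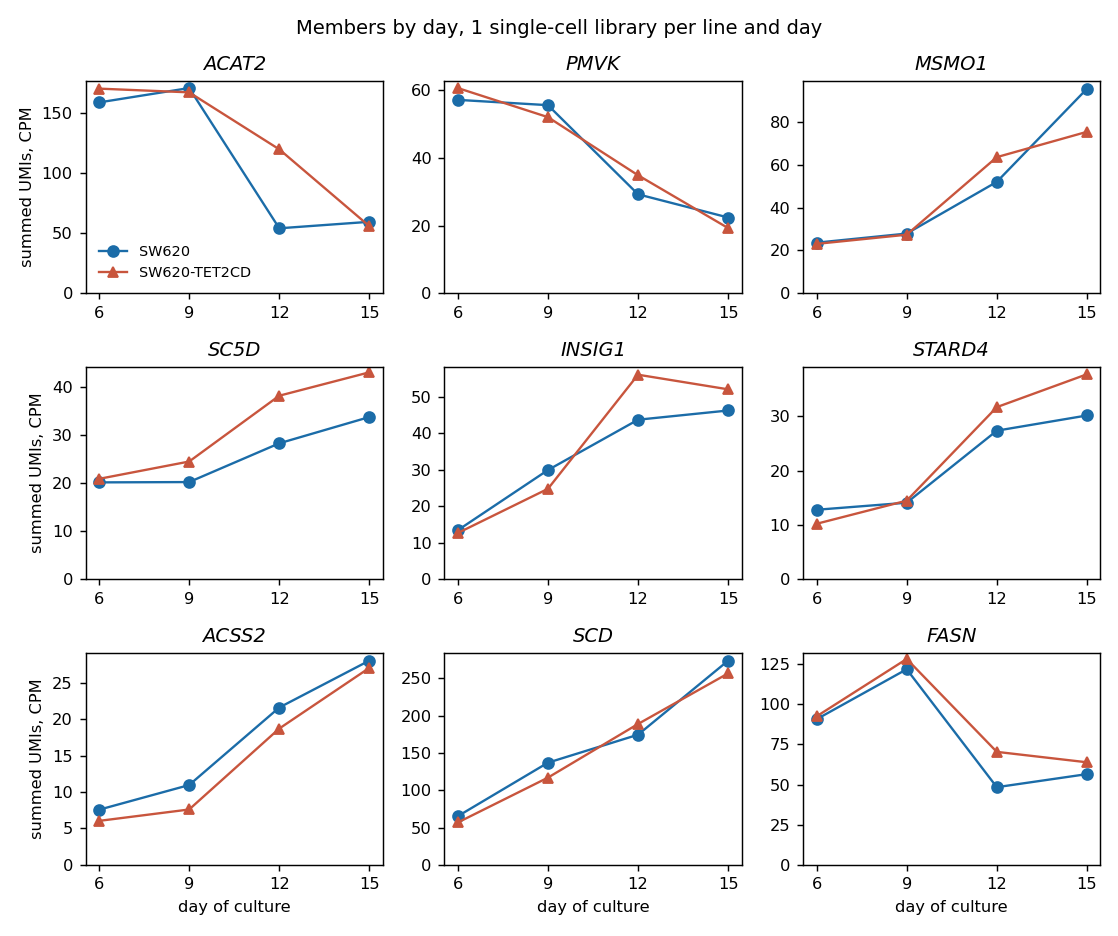
CPM of 9 members by day of culture in SW620 (circles) and SW620-TET2CD (triangles), 1 library per point, so no error bars are drawn, with each vertical axis starting at 0. ACAT2, PMVK and FASN are lower on days 12 and 15 than on days 6 and 9 in both lines, and the other 6 genes are higher.

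Among the 11 enzymes from squalene to cholesterol 2 rose and 3 fell. With 29.4% of all genes higher and 28.3% lower, these counts are no result about the group. MSMO1, the sterol methyl oxidase that removes the methyl groups at carbon 4, was at 23.7, 27.9, 52.1 and 95.6 CPM in SW620 and at 23.1, 27.4, 63.6 and 75.5 CPM in SW620-TET2CD. Every late library was above every early one, with a log2 fold change of 1.39 ± 0.20 (adjusted p = 0.000218). SC5D, the sterol desaturase of a late step, went from 20.1, 20.2 to 28.3 and 33.7 CPM in SW620 and from 20.9, 24.5 to 38.2 and 43.1 CPM in SW620-TET2CD (0.62 ± 0.12, adjusted p = 0.00137). NSDHL, which acts in the same demethylation as MSMO1, moved the other way. It was at 21.8, 25 and then 14 and 15.9 CPM in SW620 and at 20.9, 19.4 and then 15.9 and 9.39 CPM in SW620-TET2CD (-0.76 ± 0.18, adjusted p = 0.00431). LSS, the lanosterol synthase, fell by 0.47 ± 0.14 on the log2 scale (adjusted p = 0.0156), from 11.3 to 15.2 CPM early to 8.85 to 13.1 CPM late, with overlapping periods. DHCR7, the reductase of the last step, fell by 0.55 ± 0.17 (adjusted p = 0.0197), and this call was lost without any 1 of 4 libraries, as that of LSS was without SW620 of day 12 or without SW620 of day 9. SQLE, the squalene epoxidase and a rate-limiting enzyme, was at 74.6 to 108 CPM early and 61.7 to 98.1 CPM late and did not pass the test (-0.30 ± 0.16, adjusted p = 0.13). FDFT1, CYP51A1, TM7SF2, HSD17B7 and EBP did not pass it either.

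In the group of SREBP control and sterol transfer 4 of 5 genes rose, beside 29.4% of all genes. INSIG1, the sterol-responsive anchor that retains SREBPs, was at 13.4, 29.9, 43.7 and 46.3 CPM in SW620 and at 12.6, 24.8, 56.1 and 52.1 CPM in SW620-TET2CD. Day 9 was already above day 6 in both lines. The log2 fold change between the periods was 1.19 ± 0.26 (adjusted p = 0.00276). STARD4, a carrier of sterols between membranes, was at 12.8, 14.1, 27.4 and 30.2 CPM in SW620 and at 10.2, 14.5, 31.7 and 37.8 CPM in SW620-TET2CD, a log2 fold change of 1.19 ± 0.14 (adjusted p = 8.03e-05). SREBF1, which encodes SREBP1, was at 18.3, 25.3, 37.9 and 43.8 CPM and at 15.9, 25.3, 33.1 and 44.2 CPM in the respective lines (0.80 ± 0.17, adjusted p = 0.0025). SREBF2, which encodes SREBP2 and has the match to the sterol element shown above, rose least of the 4, from 22.7 to 24.9 CPM early to 31.5 to 38.7 CPM late (0.47 ± 0.12, adjusted p = 0.00819). SCAP, the escort of SREBPs, was lower late, at 12.6 to 14.8 CPM early and 10.8 to 12.4 CPM late (-0.35 ± 0.13, adjusted p = 0.0364), and its call was lost without any 1 of 7 libraries.

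The 8 genes of fatty acid synthesis split into 2 that rose, 2 that fell and 4 that did not pass the test. These shares are near the 29.4% of all genes higher and 28.3% lower. ACSS2, which makes acetyl-CoA from acetate, was at 7.57, 11, 21.6 and 28.1 CPM in SW620 and at 6.04, 7.61, 18.7 and 27.1 CPM in SW620-TET2CD. It had the largest log2 fold change of the 31 members, 1.48 ± 0.18 (adjusted p = 8.77e-05). SCD, the desaturase that forms oleate, was at 65.2, 137, 175 and 274 CPM in SW620 and at 56.8, 117, 189 and 257 CPM in SW620-TET2CD, higher on each later day in both lines (1.15 ± 0.28, adjusted p = 0.00514). ACLY, the ATP citrate lyase that makes acetyl-CoA from citrate, moved opposite to ACSS2, from 64.6 to 67.8 CPM early to 37.8 to 49.1 CPM late (-0.70 ± 0.11, adjusted p = 0.000357). FASN, the fatty acid synthase, was at 90.7, 122, 48.3 and 56.5 CPM in SW620 and at 92.5, 128, 70.4 and 63.9 CPM in SW620-TET2CD (-0.97 ± 0.15, adjusted p = 0.000422). ACACA, ELOVL6, FADS1 and FADS2 did not pass the test.

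By single steps, 2 of 31 members passed the test from day 6 to day 9, both higher, with 0.887% of all genes past it, 0.538% higher and 0.349% lower. They were INSIG1 (log2 fold change 1.05 ± 0.16, adjusted p = 0.0208) and SCD (1.03 ± 0.16, adjusted p = 0.0208). From day 9 to day 12, 19 members passed, 6 higher and 13 lower, against 42% of genes, 20.2% higher and 21.9% lower. The 6 that rose were MSMO1, SC5D, INSIG1, SREBF1, STARD4 and ACSS2, and the fall was largest in FASN (-1.21 ± 0.17, adjusted p = 0.000231) and ACAT2 (-1.12 ± 0.28, adjusted p = 0.00767). FADS1, the desaturase of long polyunsaturated fatty acids, fell in this step as well (-0.74 ± 0.15, adjusted p = 0.00275). From day 12 to day 15, 5 members passed, 3 higher and 2 lower, against 13% of genes, 6.56% higher and 6.4% lower. ACSS2, ACACA and SCD rose and PMVK and TM7SF2 fell, with ACACA, the acetyl-CoA carboxylase, at 0.65 ± 0.13 (adjusted p = 0.0119), while in the step before it fell by 0.57. HMGCS1, SREBF2 and the other members named in each comparison did not pass in the last step, except SCD (0.57 ± 0.16, adjusted p = 0.0383).

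Averaged over the days, few members passed the test between the lines. Between SW620-TET2CD and SW620, matched by day, 2 of 31 members passed the test, against 4.32% of all 17478 genes, 2.48% higher and 1.84% lower. FADS2, the desaturase at the entry of polyunsaturated fatty acid synthesis, was at 3.59, 4.89, 3.45 and 2.93 CPM on the 4 days in SW620 and at 5.77, 8.92, 9.55 and 6.06 CPM in SW620-TET2CD. It was higher in SW620-TET2CD on 4 of 4 days, with a log2 fold change of 0.91 ± 0.14 (adjusted p = 0.00278). For ACSS2 the modified line had the lower value on each day (-0.38 ± 0.09, adjusted p = 0.0433). Its log2 ratio of CPM, without the TMM scaling of the test, was -0.33, -0.53, -0.21 and -0.05 from day 6 to day 15. On day 15 the TMM factors were 1.17 for SW620-TET2CD and 0.951 for SW620, so the last ratio is lower on the scale of the test. The call of ACSS2 was lost without any 1 of 6 libraries. Neither gene passed the test when the day was not a term of the fit (adjusted p = 0.58 for FADS2 and 1 for ACSS2). Day 12 stood apart from this average. On that day 27 of 31 members were higher in SW620-TET2CD, against 54.4% of genes, among them all 7 of the mevalonate pathway and all 11 from squalene to cholesterol, with log2 ratios of 0.18 for NSDHL to 1.15 for ACAT2 and 0.83 for HMGCS1. On days 6, 9 and 15 the number higher was 19, 14 and 14 of 31, against 51.3%, 65.4% and 72.8% of genes. A single day has 1 library per line, so this was not tested. SREBF1, SREBF2, INSIG1, FASN, SCD, HMGCS1, SQLE and LSS had log2 differences of -0.21 to 0.21, with adjusted p of 0.298 or more. For the difference of the late change between the lines, edgeR and DESeq2 called 0 of 31 members and 0 of 17478 genes, and at an unadjusted p of 0.05 edgeR gave 0 members and 141 genes, or 0.807%.

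Single members also differed between dividing and other cells of the same library, in a share near that of all genes at a mark of 10 UMIs per 10000 and below it at a mark of 20, where 8 members passed against 42.3% of genes. Of the 31 members, 11 were higher and 7 lower in cells above the cycling mark than in the others of the same library, against 26.5% and 26.8% of all 16894 genes, or 53.3% in all. ACAT2 was higher in cycling cells in 8 of 8 libraries, for instance at 168 against 113 CPM in SW620 on day 6 and 76.2 against 53.6 CPM in SW620-TET2CD on day 15 (log2 fold change 0.53 ± 0.06, adjusted p = 2.15e-06). FADS1 (0.49 ± 0.05, adjusted p = 6.91e-07), PMVK (0.36 ± 0.05), ACLY (0.35 ± 0.04) and FASN (0.31 ± 0.04) were higher in cycling cells too. TM7SF2, a sterol reductase, was lower in them in 8 of 8 libraries (-0.73 ± 0.04, adjusted p = 1.47e-08). MSMO1 (-0.38 ± 0.13, adjusted p = 0.0246), ACSS2 (-0.36 ± 0.10, adjusted p = 0.00935), INSIG1 (-0.35 ± 0.11, adjusted p = 0.0135) and HMGCS1 (-0.25 ± 0.10, adjusted p = 0.0402) were also lower. SREBF2 was lower by less (-0.14 ± 0.05, adjusted p = 0.0345), while SREBF1, SQLE, LSS and SCD did not pass the test. The calls of HMGCS1 and SREBF2 were lost without either library of day 12, among others, and that of MSMO1 without SW620 of day 15. The class is a range of a score and not a cell type, and 0.362% to 3.88% of the cells of a library lay within 1 UMI per 10000 of the mark.

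The time course was also tested inside each class. Within cycling cells 14 members passed the late-to-early test, 4 higher and 10 lower, against 36.6% of genes, 17.8% higher and 18.8% lower. Within the other cells 15 passed, 9 higher and 6 lower, against 44.7%, with 22.9% higher and 21.8% lower. MSMO1, SREBF1, STARD4 and ACSS2 rose in both classes, and ACAT2, MVK, PMVK, NSDHL, ACLY and FASN fell in both. The call of MVK in cycling cells was lost without any 1 library except SW620-TET2CD of day 12. That of NSDHL in cycling cells was lost without either library of day 9 or day 15 or without SW620-TET2CD of day 6, and in the other cells without SW620 of day 9. ACSS2 had log2 fold changes of 0.93 ± 0.16 in cycling cells (adjusted p = 0.000887) and 1.52 ± 0.19 in the others (adjusted p = 0.00018). FASN had -0.83 ± 0.16 (adjusted p = 0.00193) and -0.64 ± 0.15 (adjusted p = 0.00573). INSIG1 and SCD passed among the other cells, at 1.28 ± 0.26 (adjusted p = 0.00251) and 1.37 ± 0.30 (adjusted p = 0.00396), while cycling cells had 0.59 ± 0.26 (adjusted p = 0.0941) and 0.56 ± 0.24 (adjusted p = 0.0876). The classes did not hold division or hypoxia fixed. Among the other cells 24 of 24 cycling genes were lower late, with a median log2 fold change of -1.99, and 15 of 17 hypoxia genes were higher. Among cycling cells 14 of 16 tested hypoxia genes were higher late, and of 24 cycling genes 3 were higher and 7 lower. Whether the changes of the members differ between the classes was not tested.

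**Figure D3:**
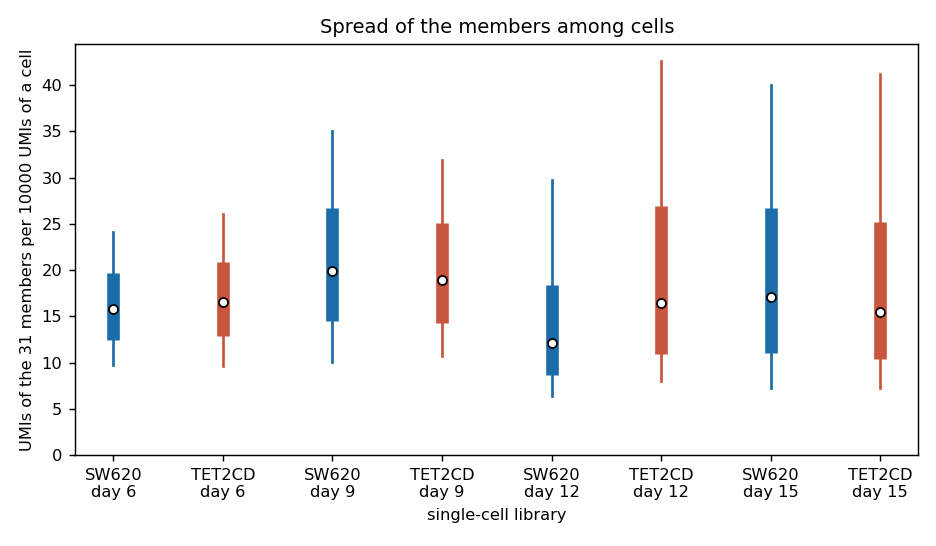
UMIs of the 31 members per 10000 UMIs of a cell in each single-cell library, with the median (point), the 25th to 75th percentile (thick bar) and the range from the 10th to the 90th percentile (thin line). Medians overlap between the periods, and the distance between the percentiles is wider on days 12 and 15 than on day 6, while SW620 on day 9, from 10.1 to 35.1, spans more than SW620 on day 12, from 6.40 to 29.8.

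The spread of these genes between cells was read in 2 ways. The members made up 12.1 to 19.9 of 10000 UMIs in the median cell of a library. The 10th percentile was 9.65 to 10.7 early and 6.40 to 7.97 late, and the 90th percentile was 24.1 to 35.1 early and 29.8 to 42.6 late, so the periods overlapped at the upper end. With every cell thinned to 2000 UMIs, the variance of the members' UMIs over their mean was 1.24 to 1.76 in the 4 early libraries and 2.71 to 3.44 in the 4 late ones, where 1 is the value of random counting. Between 18 and 89 cells per library were too shallow for this and left out, and the unthinned percentiles are those given first.

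In the late libraries most members, though not most fatty acid genes, were higher in cells of the same library with a high hypoxia score. Cells of each library were ordered by the share of UMIs from the 17 hypoxia genes, none of which is a member, and the highest and lowest tertile were summed. Over all 8 libraries 22 of 31 members passed the test between the tertiles, 19 higher and 3 lower in the high tertile, against 32.2% of 15740 genes, 16.1% in each direction. This count was 12 without SW620 of day 12, against 15% of genes, and 9 with cells thinned to 2000 UMIs, against 6.53%. The libraries were then split by period, a comparison chosen after these values were seen. In the late libraries 22 members were higher and 4 lower in the high tertile, against 25.3% and 31.3% of genes, or 56.6% in all, and the median log2 fold change was 0.69 over the members and -0.05 over all genes. In the early libraries 0 members passed by edgeR or DESeq2, against 1.99% of genes. At an unadjusted p of 0.05 edgeR gave 12 members there, against 17.9% of genes, and 22 members were higher in the high tertile in 4 of 4 early libraries, against 26.9% of genes, as 22 were in 4 of 4 late libraries, against 25.7%. The difference between the periods itself, counted with its sign, passed the test for 23 members, 20 higher and 3 lower late, against 34.6% of genes, 13.1% higher and 21.4% lower. The tertiles did not span the same scores in both periods. Median hypoxia scores per 10000 UMIs were 4.98 to 8.36 in the high and 1.07 to 1.59 in the low tertiles early. Late they were 32.6 to 37.3 and 5.51 to 6.91. Over the hypoxia genes the median log2 fold change between tertiles was 2.35 early and 2.28 late. The part of these score ranges in the difference between the periods was not tested.

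**Figure D4:**
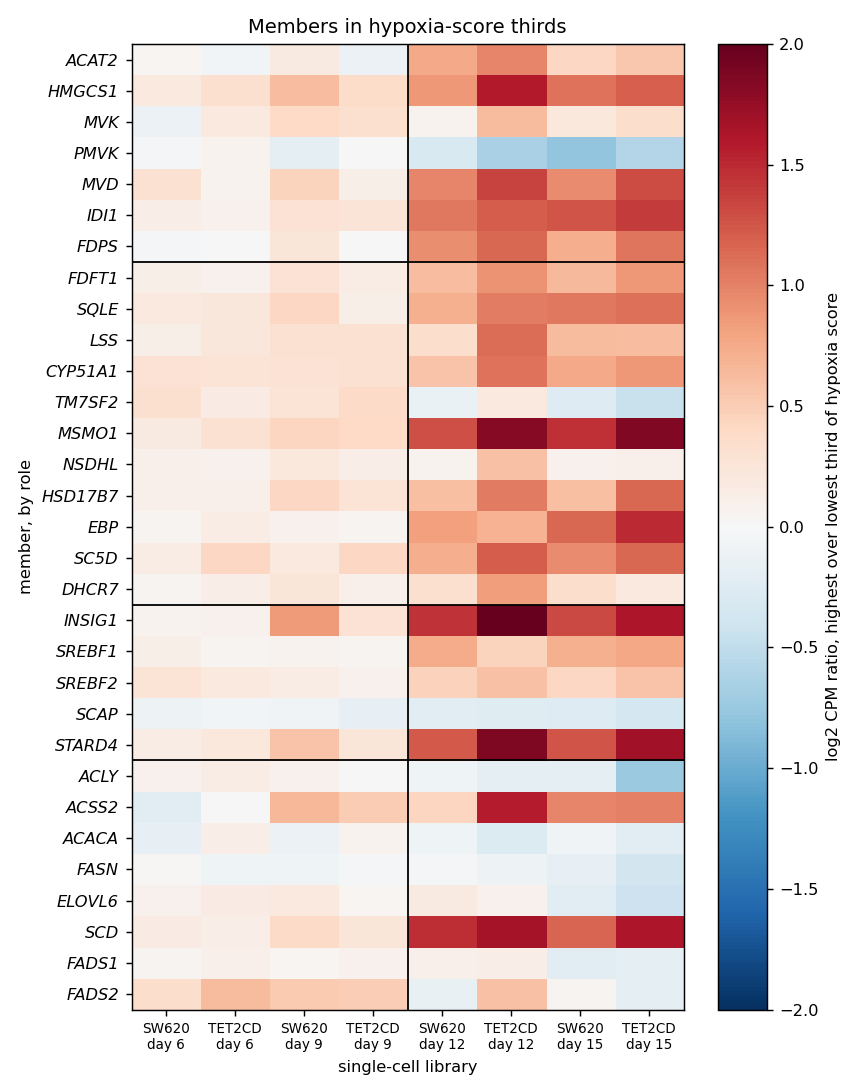
Log2 ratio of CPM between the highest and the lowest tertile of cells by hypoxia score, for each member (rows, grouped by role with lines between the 4 groups) and each single-cell library (columns, early libraries left of the vertical line). Red marks a higher level in the high tertile, and most sterol genes and SCD are red on days 12 and 15 and pale on day 6, whereas PMVK and SCAP are blue on days 12 and 15.

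Most mevalonate and sterol enzymes were higher in the high tertile of the late libraries. They were 6 of 7 mevalonate enzymes and 10 of 11 enzymes from squalene onward, although the call of NSDHL was lost without any 1 of 4 libraries and that of MVK without SW620-TET2CD of day 12. HMGCS1 was at 60.8 against 33.2 CPM in SW620 on day 12, 68.6 against 32.4 on day 15, and in SW620-TET2CD at 137 against 45.6 on day 12 and 94.4 against 41.3 on day 15. The high tertile was above the low one in every late library, at a log2 fold change of 1.19 ± 0.09 (adjusted p = 6.93e-08), and by 0.31 ± 0.09 in early libraries (adjusted p = 0.0831). IDI1, the isomerase of isopentenyl diphosphate, had 1.23 ± 0.07 (adjusted p = 6.91e-09), SQLE 0.98 ± 0.08 (adjusted p = 8.65e-08) and LSS 0.69 ± 0.10 (adjusted p = 4.04e-05). MSMO1 was at 81.9 against 33.7 and 154 against 56 CPM in SW620 on days 12 and 15 and at 115 against 32.5 and 144 against 39.8 CPM in SW620-TET2CD. Its log2 fold change was 1.60 ± 0.08 in late libraries (adjusted p = 3.86e-09), and it was larger late than early by 1.33 ± 0.12 (adjusted p = 5.39e-06). PMVK was the exception in its pathway, lower in the high tertile (-0.59 ± 0.07, adjusted p = 9.24e-06). TM7SF2 did not pass in the late libraries.

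Among the regulators, INSIG1 had the largest difference of all members. It was at 72.5 against 26.6 and 73.5 against 29.4 CPM in SW620 on days 12 and 15 and at 112 against 24.5 and 90.8 against 29.7 CPM in SW620-TET2CD (log2 fold change 1.64 ± 0.12, adjusted p = 5.44e-08). In SW620 and SW620-TET2CD the tertiles were at 14.3 against 13.6 and 13.1 against 12.3 CPM on day 6, and at 41.5 against 23.1 and 29.3 against 24.1 CPM on day 9, a smaller gap than late in each library. STARD4 had 1.5 ± 0.09 (adjusted p = 1.34e-08), SREBF1 0.67 ± 0.07 (adjusted p = 1.52e-06) and SREBF2 0.51 ± 0.06 (adjusted p = 3.53e-06), while SCAP was lower (-0.26 ± 0.08, adjusted p = 0.00799). Of the 8 fatty acid genes SCD and ACSS2 were higher and ACLY and FASN lower. SCD was at 291 against 105 and 406 against 181 CPM in SW620 on days 12 and 15 and at 331 against 104 and 444 against 145 CPM in SW620-TET2CD (1.47 ± 0.07, adjusted p = 1.67e-09). FASN had a small difference of -0.17 ± 0.06 (adjusted p = 0.0238). The calls of FASN, ACLY and SCAP were lost without SW620-TET2CD of day 15.

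Other measures moved with the tertiles. In late libraries the high tertile held fewer UMIs per cell, with medians of 5930 to 11340 against 7959 to 14424, fewer cycling cells, at 2.34% to 8.24% against 8.47% to 27.3%, and a lower median mitochondrial share, at 4.07% to 4.93% against 5.65% to 7.93%. Among cells below the cycling mark alone, 22 members were still higher and 2 lower in the high tertile of the late libraries, against 26.4% and 26.9% of genes. With cells thinned to 2000 UMIs 21 were higher and 3 lower, against 19.2% and 22.3%. Marker genes of cell types moved with the tertiles as well. The 8 epithelial markers summed to 11800 to 16222 CPM in the high and 7415 to 11430 CPM in the low tertiles of the late libraries, with CDH1, the epithelial cadherin, at a log2 fold change of 1.27 ± 0.09 (adjusted p = 2.57e-08) and KRT19 at 1.13 ± 0.08 (adjusted p = 2.96e-08). Of the 7 that were tested, 5 were higher and 1 lower in the high tertile, against 25.3% and 31.3% of genes. CDX2 was at 13.2 against 21.4 and 6.47 against 9.45 CPM in SW620 on days 12 and 15. In SW620-TET2CD it was at 22.1 against 16.9 and 8.64 against 13.2 CPM. The 5 immune markers summed to 36.6 to 82 against 12.5 to 39.6 CPM, with CD68 at 1.92 ± 0.17 (adjusted p = 3.01e-07) and LYZ at 0.97 ± 0.09 (adjusted p = 4.14e-07). PTPRC, CD3E and CD79A, which define leukocytes and lymphocytes, were under 1 CPM in every late tertile. The 6 fibroblast markers summed to 10.2 to 13.6 against 6.58 to 13.9 CPM, with COL1A1 (0.84 ± 0.18, adjusted p = 0.000905) and DCN (1.80 ± 0.48, adjusted p = 0.00514, under 1 CPM) higher in the high tertile and COL1A2 and COL3A1 at 0. The 4 endothelial markers summed to at most 1.46 CPM in each. The parts of these markers and of the mitochondrial share in the result were not tested.

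Neighbouring pathways were read from lists of the same lipid biology. The counts stand beside 29.4% of all genes higher and 28.3% lower in time, 57.7% in all, and a share near these is no result about a list. In time, 7 of 11 genes of sterol uptake, transport and efflux rose and 2 fell, with NPC1, the lysosomal sterol exporter, at 6.18 to 8.17 CPM early and 13.9 to 19.4 CPM late (log2 fold change 1.11 ± 0.17, adjusted p = 0.000354), VLDLR at 1.87 ± 0.20 (adjusted p = 5.02e-05) and the efflux transporter ABCG1, below 6 CPM in all libraries, at 3.53 ± 0.48 (adjusted p = 0.000172). Of 9 genes of SREBP processing and sterol sensing 1 rose and 2 fell: INSIG2, the paralogue of INSIG1, was at 8.22 to 9.74 CPM early and 23.2 to 27.7 CPM late (1.41 ± 0.11, adjusted p = 9.18e-06), and TMEM97, a sterol-binding receptor, had -1.72 ± 0.17 (adjusted p = 2.84e-05). Among 8 genes of isoprenoid branches 2 rose and 4 fell, with the coenzyme Q genes COQ2 (-1.96 ± 0.27, adjusted p = 0.00017) and PDSS1 (-1.90 ± 0.25, adjusted p = 0.000158) falling most. Of 9 ester and lipid droplet genes 2 rose and 4 fell, among them SOAT1, which esterifies cholesterol (-0.91 ± 0.13, adjusted p = 0.000224), and PLIN2, a coat protein of lipid droplets (-0.69 ± 0.17, adjusted p = 0.00579). Of 12 fatty acid oxidation genes 2 rose and 6 fell, with CPT1A, the gate to mitochondrial oxidation, at -0.94 ± 0.13 (adjusted p = 0.000238) and the regulator PPARA at 2.19 ± 0.30 (adjusted p = 0.00017). Of 16 tested genes of fatty acid supply and elongation, out of 17, 4 rose and 3 fell, with ME1, the malic enzyme that supplies NADPH, at -1.19 ± 0.21 (adjusted p = 0.00072).

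In the late hypoxia tertiles, where 25.3% of all genes were higher and 31.3% lower, the same lists gave 7 higher and 1 lower for sterol uptake, transport and efflux, 1 and 4 for SREBP processing, 3 and 2 for isoprenoid branches, 5 and 1 for esters and lipid droplets, 2 and 6 for oxidation, and 7 and 4 for supply and elongation. INSIG2 was higher in the high tertile (log2 fold change 1.94 ± 0.12, adjusted p = 1.49e-08), as were NPC1 (1.13 ± 0.08, adjusted p = 5.72e-08), HILPDA, a lipid droplet protein known as a hypoxia target (1.34 ± 0.06, adjusted p = 1.06e-09), and PLIN2 (0.99 ± 0.08, adjusted p = 1.49e-07). PLIN2 thus fell with time and was higher in the high tertile. CPT1A (-0.67 ± 0.07, adjusted p = 1.35e-06) and TMEM97 (-1.06 ± 0.09, adjusted p = 1.04e-07) were lower. Between the lines 2 genes of these lists passed, beside 4.32% of all genes, 2.48% higher and 1.84% lower, so the count is no result about the lists. They were ABCG1, lower (-1.01 ± 0.21, adjusted p = 0.0179), and ACSL5, a long-chain acyl-CoA synthetase, higher in SW620-TET2CD (1.02 ± 0.14, adjusted p = 0.00134).

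Bulk libraries of day 15 set cells outside the colonies against those inside, as TPM, the deposited length-scaled level, and ratios are on the log2(TPM + 1) scale. With 1 residual degree of freedom, edgeR called 0 of 31 members and 0 of 17722 genes between the locations, with 2 members (TM7SF2 and SC5D) and 1068 genes, or 6.03%, at an unadjusted p of 0.05, and DESeq2 called 0 members and 21 genes. The values are therefore given by line. In SW620 15 members were higher and 16 lower outside, against 51.7% of genes lower, with a range of log2 ratios of -0.28 to 0.43. In SW620-TET2CD 26 of 31 were lower outside, with a median of -0.35, against 40.2% of 18992 genes and a median of 0.06. Over both lines 14 members were lower outside in each, against 23% of genes.

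**Figure D5:**
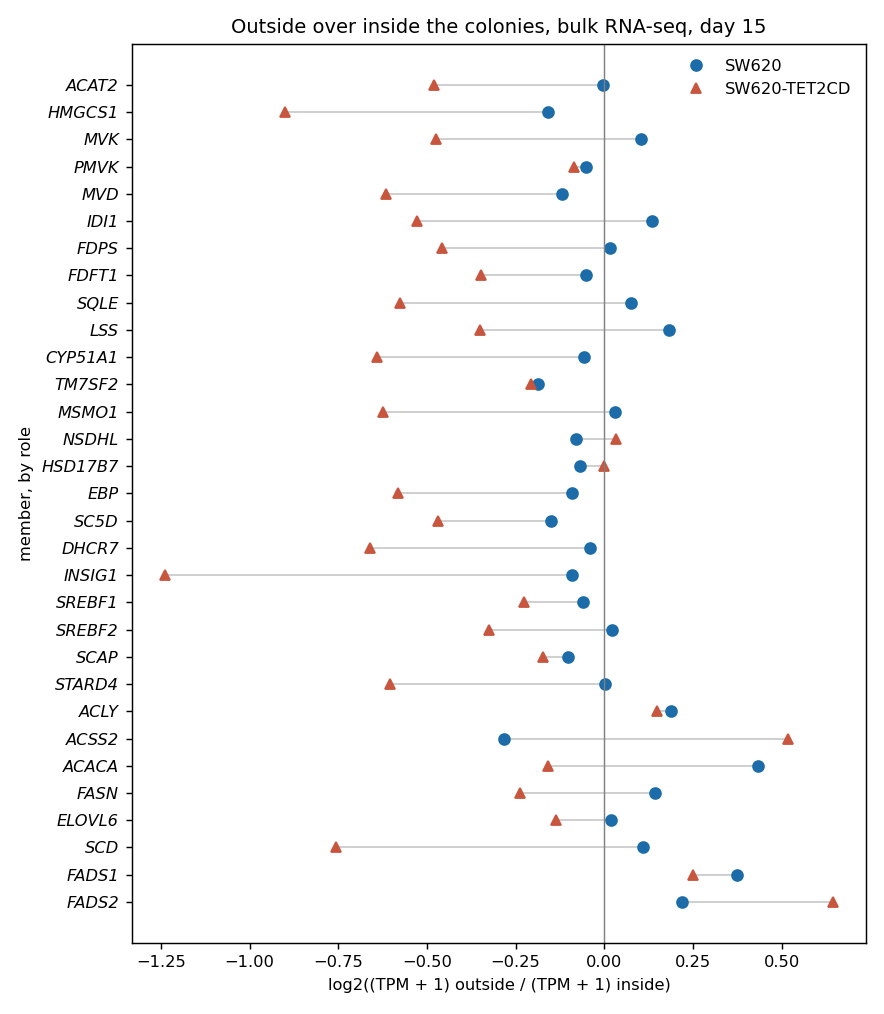
Log2 ratio of TPM + 1 outside over inside the colonies on day 15 for each member, in SW620 (circles) and SW620-TET2CD (triangles), 1 library per line and location and so without error bars. Circles lie between -0.28 and 0.43, whereas 26 of 31 triangles lie left of 0, down to -1.24 for INSIG1.

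Ranked by the smaller of both ratios among members with the same sign in both lines, FADS1 (0.37 in SW620 and 0.25 in SW620-TET2CD) and FADS2 (0.22 and 0.65) were higher outside, as was ACLY (0.19 and 0.15). FADS1 was at 37.2 TPM inside and 48.5 outside in SW620 and at 39.9 and 47.7 in SW620-TET2CD. FADS2 was at 9.91 and 11.7 TPM and at 14.6 and 23.5 TPM, respectively. TM7SF2 (-0.19 and -0.21), HMGCS1 (-0.16 and -0.90) and SC5D (-0.15 and -0.47) were lower outside in both. HMGCS1 was at 76.1 and 68 TPM inside and outside in SW620 and at 95.6 and 50.8 TPM in SW620-TET2CD. INSIG1 was at 27.7 and 25.9 TPM in SW620 and at 48.8 and 20.1 TPM in SW620-TET2CD, and SCD at 284 and 306 TPM and at 363 and 214 TPM. SREBF1 and SREBF2 moved less, by -0.06 and 0.02 in SW620 and by -0.23 and -0.32 in SW620-TET2CD. SQLE had 0.08 and -0.58, LSS 0.18 and -0.35, and FASN 0.14 and -0.24. In SW620-TET2CD the 17 hypoxia genes summed to 2248 TPM inside and 1486 outside, in SW620 to 1154 and 1262, although 11 of the 17 were lower outside in SW620 as well, against 14 in SW620-TET2CD. TET2 itself was at 38.1 TPM inside and 124 outside in SW620-TET2CD. The 24 cycling genes summed to 158 TPM inside and 440 outside in SW620-TET2CD and to 450 and 579 in SW620. The part of these in the difference was not tested.

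Between the lines in bulk on day 15, edgeR called 0 members, against 0.412% of genes, with 5 members and 20% of genes at an unadjusted p of 0.05, and DESeq2 called 1, FADS2 (log2 fold change 0.94, adjusted p = 0.012), against 4% of genes. Inside the colonies 24 members were higher in SW620-TET2CD than in SW620, against 47.2% of genes, whereas outside 25 were lower, against 39.7%. FADS2 was higher in SW620-TET2CD in both places (log2 ratios 0.52 and 0.95), as in the single-cell sums. Without the inside library of SW620-TET2CD 16 members passed, 15 of them lower, against 22.5% of genes, and without its outside library 7 passed, 5 of them higher, against 16.2%. These fits of 3 libraries have no term for location, and the single SW620-TET2CD library is assumed to vary like the SW620 ones, so line and location cannot be told apart in them. The named members SREBF1, SREBF2, INSIG1, FASN, SCD, HMGCS1, SQLE and LSS had fitted log2 differences of -0.22 to 0.12.

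The time course in bulk differed from that in single cells. In SW620, bulk day 15 set beside bulk day 6 gave 1 member past 2-fold, ACAT2, which was at 158 TPM on day 6 and at 53.4 inside and 53.3 outside on day 15, against 5.15% of genes 2-fold lower inside and 4.77% outside. No member was higher by 2-fold, against 4.81% and 3.78% of genes. Most members were lower on day 15 in bulk, 25 of 31 inside and 23 outside, against 50.9% and 53.4% of genes, whatever the single-cell call. Both bulk libraries of day 15 were lower in 7 of the 9 members that fell in the single-cell sums, in 5 of the 8 that rose and in 11 of the 14 without a call. The share of all genes lower in both was not counted, so these numbers are a description only. Of the 8 that rose, MSMO1, SREBF1 and SREBF2 were higher in both. SCD was at 345 TPM on day 6 against 284 and 306 on day 15, where single-cell CPM in SW620 had gone from 65.2 to 274. INSIG1 was at 36.1 TPM against 27.7 and 25.9, and STARD4 at 40.9 against 29.8 and 29.8. The 17 hypoxia genes, higher late in the single-cell sums, summed to 1053 TPM on day 6 and to 1154 inside and 1262 outside on day 15. Most of the day 6 sum was SLC2A1, at 826 TPM on day 6 and 624 inside and 657 outside on day 15. VEGFA went from 48.7 to 166 and 183 TPM, and DDIT4 from 28.9 to 190 and 263. ADM, ANKRD37, BNIP3L and KDM3A were, like SLC2A1, lower in both day 15 libraries. The 24 cycling genes summed to 1772 TPM on day 6 and to 450 and 579 TPM on day 15. The assays differ in kit and in what they count, the labels do not say whether they share cultures, and the cause of this difference was not tested.

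On day 6, 22 of the 31 members were higher in SW480 than in SW620, against 48% of genes, and 9 were lower. By 2-fold or more 6 were higher, a share near the 14.5% of all genes, while 0 were lower by 2-fold, against 10.5%. ACSS2 was at 164 against 37.2 TPM, INSIG1 at 91 against 36.1, FADS2 at 44.7 against 13.3, CYP51A1 at 116 against 42.7, NSDHL at 63.5 against 26.1, and STARD4 at 90 against 40.9. HMGCS1, at 78.9 against 97, SCD, at 253 against 345, SREBF1, at 61.7 against 85.9, and SREBF2, at 62.2 against 80.1, were lower in SW480. LSS was at 153 against 86.1 TPM, SQLE at 73.1 against 53.9, and FASN at 152 against 154. With 1 library each there is no replicate check on these differences.

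Some members share sequence with neighbours or copies. On GRCh38, ACAT2 (chr6:159762045-159779112) overlaps TCP1 on the opposite strand, FADS1 (chr11:61799627-61829318) overlaps FADS2 (chr11:61792980-61867354) on the opposite strand, and STARD4 overlaps STARD4-AS1. The sources used here do not say whether strand was used for the bulk counts. Bulk reads from a stretch shared by such a pair may therefore not be told apart. On the same strand FADS2 overlaps FEN1 and TM7SF2 overlaps VPS51, and strand does not separate these in either assay. GENCODE lists 8 pseudogenes named after FDPS and 3 each after IDI1, CYP51A1 and HSD17B7, and the levels of these genes are uncertain to the extent that reads were divided among copies. In bulk samples fewer cells with a transcript and less of it per cell cannot be told apart.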

How the data were processed

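Single-cell RNA-seq was done with the 10x Genomics 3' v3.1 kit in 8 libraries and bulk RNA-seq with a TruSeq kit in 6. The deposited single-cell matrices hold UMI counts per gene and barcode, which the submitters' processing notes credit to Cell Ranger 4.0 and GRCh38. For the bulk libraries the authors deposited RSEM expected counts and TPM values per gene. Their notes name Bowtie, RSEM and mm10, a mouse build, although the gene identifiers are human, so the bulk build is not settled and no coordinates were taken from it. The 45 pseudoautosomal Y rows of the bulk tables were left out.

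The limits of the study were kept for cells: 200 to 4500 genes, 1000 to 20000 UMIs, and a mitochondrial share of no more than 10%. Doublets were not called, and an alternative dropped the cells with the highest UMI totals (8% of each library). Counts were summed per library, or per library and class of cells (at least 50 cells). Expected counts were rounded. Tests used edgeR 4.0.16 (filterByExpr, TMM, quasi-likelihood, two-sided) in R 4.3.3, with DESeq2 1.42.0 as an alternative, adjusted by Benjamini-Hochberg over all tested genes at 0.05. The line was a term in the comparisons of days, the day in that of lines, the library in those of classes, and line and location in bulk. SE is the log2 fold change divided by the root of its F statistic. The late and early fits treat the 2 lines of a day as independent. TPM ratios used a pseudocount of 1, and their background is the 18992 genes of at least 1 TPM in a library. The scripts were tested on simulated counts. Other versions were Python 3.11.15, numpy 2.4.6, pandas 2.3.3 and matplotlib 3.10.9.

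The 31 members and the other lists were chosen with earlier results of these data known. Members with values in every library were, for time, the 2 or 3 per role with the largest change past the threshold at a mean of at least 8 CPM, for location up to 6 ranked by the smaller ratio, and for lines and classes up to 6 with the largest change past the threshold. SREBF1, SREBF2, INSIG1, FASN, SCD, HMGCS1, SQLE and LSS were named throughout. Depth was 48186195 to 74185723 kept UMIs and 16477779 to 25854058 expected counts per library. Intervals from counting would cover counting error only and are not given.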

Additional observations from a re-analysis of the deposited data

Results flagged for a closer look

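The difference between the hypoxia tertiles was itself different in late and early libraries for 23 members by the edgeR test of that difference, late minus early on the log2 scale. It was larger late for INSIG1 (1.35), MSMO1 (1.33), SCD (1.3), STARD4 (1.27), IDI1 (1.09), EBP (1.00), FDPS (0.97), MVD (0.97), HMGCS1 (0.88), ACSS2 (0.80), SQLE (0.80), SC5D (0.77), ACAT2 (0.72), HSD17B7 (0.69), SREBF1 (0.66), FDFT1 (0.65), CYP51A1 (0.59), LSS (0.51), SREBF2 (0.39) and DHCR7 (0.35). It was lower late, counted with its sign, for PMVK (-0.50), TM7SF2 (-0.39) and ACLY (-0.32). The log2 ratios by library were -0.18 to 0.07 early and -0.79 to -0.30 late for PMVK, where the gap was thus wider late. They were 0.17 to 0.39 and -0.45 to 0.20 for TM7SF2, and -0.01 to 0.15 and -0.75 to -0.09 for ACLY. Without any 1 library 20 to 24 members passed, and those lost in some of these fits were ACLY (without 5 different libraries), TM7SF2, DHCR7 and ACSS2.

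The ratio of TPM outside over inside the colonies had opposite signs in SW620 and SW620-TET2CD, by at least 0.1 in both, in 7 members, a difference that was not tested because each line and location has 1 library. The share of all genes that meet this rule was not counted, so the number of members is a description only. The log2 ratios in SW620 and SW620-TET2CD were 0.10 and -0.48 for MVK, 0.13 and -0.53 for IDI1, 0.18 and -0.35 for LSS, -0.28 and 0.52 for ACSS2, 0.43 and -0.16 for ACACA, 0.14 and -0.24 for FASN, and 0.11 and -0.76 for SCD.

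Single libraries stood apart by Dixon's criterion in 6 of 93 groups of 4 values, where chance gives about 1 in 20. ACAT2 in SW620-TET2CD on day 12, at 120 CPM, lay far above the other late libraries, and its log2 ratio between the lines on that day was 1.15. IDI1 had a ratio of 0.65 between the lines on day 12, apart from the other days, and ACACA one of 0.13 on day 9. FDFT1 was at 140 CPM in SW620 on day 6, below the other early libraries, and SC5D at 24.5 CPM in SW620-TET2CD on day 9, above them.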

How the results depend on the processing

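The 17 members past the test between late and early days stayed at 16 to 22 under the other tool, filter, scaling and cell limits. The share of all genes past it ran from 39.3% without a filter, where 22 members passed, to 59.6% with upper-quartile factors, where 17 did. Leaving out 1 single-cell library gave 14 to 19 for late and early days, against 47.4% to 59.9% of genes. For the lines it gave 1 to 2, against 2.42% to 4.31%, and for cycling cells 12 to 17, against 48.9% to 53.7%. For the hypoxia tertiles it gave 12 to 22, against 15% to 33.6%. In early libraries, late libraries and their difference these gave 0 to 4, 23 to 26 and 20 to 24, against 0.255% to 7.7%, 49% to 55.9% and 27.5% to 39.1%. Time within cycling and other cells gave 9 to 18 and 14 to 17, against 25.5% to 37.3% and 30.8% to 51.3%. The low of 9 in cycling cells came without either library of day 15, the 12 for the hypoxia tertiles without SW620 of day 12, and the 4 in early libraries without SW620-TET2CD of day 12. For the lines, 1 member remained past the test with upper-quartile factors, against 4.38% of genes, or without the 8% of cells with most UMIs, against 4.14%, and 0 without the day as a term, against 0.278%. Without a filter on low counts 5 members passed from day 6 to day 9, against 3.63% of genes, and 8 from day 12 to day 15, against 12.3%. In bulk 1 then passed for location, against 1.5%, and 4 between the lines, against 7.1%. DESeq2 gave 4 from day 6 to day 9, against 2.27%, and 1 between the bulk lines, against 4%. A cycling mark of 20 per 10000 left 8 members, against 42.3% of genes. Thinning left 9 in the hypoxia tertiles over all libraries, where 6.53% of genes passed, and 24 in the late libraries alone, where 41.5% passed. Signs turned in 3 cases with a value past the threshold in at least 1 of the fits: NSDHL in cycling cells (-0.040 when thinned), and, between the bulk lines, HMGCS1 (-0.62 to 0.42 without 1 library, the higher without the outside library of SW620-TET2CD) and INSIG1 (-0.56 to 0.78, the lower without the inside one). Other members changed sign between values that passed in neither fit, such as MVD, FDFT1 and ACACA in time with upper-quartile factors. Counts over all genes moved by more than 1.5 times in some fits. For the lines, 755 genes became 1489 without a filter, 46 without the day as a term, and 440 or 458 without a library of day 9. From day 6 to day 9, 155 became 396 by DESeq2 and 978 without a filter, and the interaction went from 0 to 15 without one. In bulk, location went from 0 to 21 by DESeq2 and 472 without a filter, and the lines from 73 to 709 and 2239, to 178 and 193 with other scalings, to 8 without the location as a term, and to 0 to 4191 without 1 library. Thinning took the cycling genes from 9001 to 5282 and the tertile genes from 5063 to 880 over all libraries, 313 to 25 early, 8912 to 5590 late, and 5439 to 3349 for the difference, which was 2686 in cells below the cycling mark. Without 1 late library the tertile genes over all libraries were 2362 to 3354, and without 1 library those of the early libraries were 40 to 1210. The cause of these changes was not tested. No paired analysis was possible because the labels do not pair replicates, other than through the day, line, location or library that were terms of the fits. The title of the bulk SW620 library of day 6 ends in a 2, and the labels do not say what it means. Depth limits precision most for genes under 10 CPM in each library, such as FADS2, VLDLR and ABCG1.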
